A study of Rattus norvegicus with 7 samples.

Results

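The insulin-like growth factor genes of rat mesenchymal stem cells were examined on 3 culture surfaces. The 10 genes were chosen by symbol, as growth factors (Igf1, Igf2), receptors (Igf1r, Igf2r) and binding proteins (Igfbp2 to Igfbp7), and all 10 were found among the 17147 gene symbols of every library. The cells (rMSCs) were primary cells that the labels trace to rat bone marrow, and the methods describe a single 6-week-old male Sprague-Dawley rat as their source. The labels name no genetic change or drug, and every group was kept in alpha MEM with serum and antibiotics and collected 4 h after 20000 cells were seeded. The surfaces were ISB-P, a film of a polycaprolactone polyurethane that contains propoxylated isosorbide (3 libraries), PCL, a film of polycaprolactone (3 libraries), both 16 mm wide, and TCP, tissue culture plastic (1 library). The labels do not say that libraries of a film came from separate cultures, so p-values measure the spread between these libraries, which may be technical. The values were read as FPKM, which are scaled to transcript length and to the library's total, so levels can be compared between genes, but the number of reads behind them is unknown.

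Insulin-like growth factors are secreted proteins that promote growth, survival and differentiation of many mesenchymal cells. Both ligands signal through Igf1r, a receptor tyrosine kinase, while Igf2r takes up IGF2 for breakdown and also carries lysosomal enzymes. The binding proteins hold the ligands outside the cell and can lower or prolong their action, and several of them also act on cells without a ligand. Marrow stromal cells and osteoblasts are known sources of both ligands and of several binding proteins.

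The labelled cell type was checked against its markers. All 6 mesenchymal genes examined (Thy1, Nt5e, Eng, Cd44, Itgb1 and Col1a1) were at 1 FPKM or more in every library, and all 5 endothelial genes were under 1 FPKM in every library. Among blood cell and macrophage genes, Cd34 was listed at 0 in every library. Of the 6 found, 3 were at 1 FPKM or more throughout (Cd14, Csf1r and Cd68). Cd14, the highest of them, was between 10.9 and 16.6 FPKM on the films and 31.7 FPKM on TCP. The libraries of each film also differed in a way shared between same-numbered libraries, so films were compared both without and with a block for replicate number.

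Igfbp7, Igfbp6 and Igfbp4 were the binding protein genes with the highest levels. Their means were lower on ISB-P than on PCL and lower on both films than in the single TCP library. The films overlapped for Igfbp6 and Igfbp7, and none of these genes passed the test between the films without the replicate block. The 250 bases before their transcript starts are shown because these genes carried nearly all of the binding protein signal. Sequences are from RefSeq on the GRCr8 rat build, each on its gene's plus strand, 5′ to 3′: chr10:84491221-84491470 for Igfbp4, chr7:135154669-135154918 for Igfbp6 and chr14:31091486-31091735 for Igfbp7. Capitals mark the motifs that were searched for.
Igfbp4: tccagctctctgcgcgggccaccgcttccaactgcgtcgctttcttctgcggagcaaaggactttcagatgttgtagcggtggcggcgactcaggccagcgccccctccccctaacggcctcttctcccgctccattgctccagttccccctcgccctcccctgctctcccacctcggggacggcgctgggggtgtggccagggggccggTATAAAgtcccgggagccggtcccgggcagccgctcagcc
Igfbp6: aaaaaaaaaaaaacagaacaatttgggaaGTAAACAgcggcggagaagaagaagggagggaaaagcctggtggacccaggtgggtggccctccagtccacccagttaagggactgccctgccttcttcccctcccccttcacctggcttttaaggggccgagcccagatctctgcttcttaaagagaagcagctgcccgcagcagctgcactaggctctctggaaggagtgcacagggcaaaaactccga
Igfbp7: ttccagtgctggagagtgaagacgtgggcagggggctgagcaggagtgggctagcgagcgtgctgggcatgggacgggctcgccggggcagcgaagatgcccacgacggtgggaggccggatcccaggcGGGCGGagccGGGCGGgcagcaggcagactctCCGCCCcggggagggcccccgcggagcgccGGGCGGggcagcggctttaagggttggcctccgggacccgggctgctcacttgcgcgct
The motifs, read on both strands, were TATAAA (bound by the basal transcription machinery), GTAAACA (bound by FOXO factors, which act downstream of insulin and IGF receptors), GAANNTTC (part of heat shock elements) and GGGCGG (a GC box). They were found in 12.9%, 3.21%, 7.23% and 30.5% of 33469 RefSeq windows of this length. Igfbp4 held TATAAA, beginning 40 bases before the start, Igfbp6 held GTAAACA 221 bases before it, and Igfbp7 held 4 GC boxes. Over the 11 windows of the members, Igf2 having 2, TATAAA and GTAAACA were found in these windows alone, and GAANNTTC was found in that of Igfbp5 alone. GGGCGG was found in 5 of the 11, of the genes Igf1r, Igf2, Igf2r, Igfbp2 and Igfbp7. A match is a string of letters and not a binding site.

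Of the ligands, Igf1 was expressed at low levels and Igf2 was close to the lower end of the measured range. In the order of replicates 1, 2 and 3, kept throughout, Igf1 was 3.58, 6.66 and 7.34 FPKM on PCL, 5.18, 5.71 and 8.71 FPKM on ISB-P, and 7.49 FPKM on TCP. Replicate 1 was the lowest and replicate 3 the highest on both films, and the films overlapped. Igf2, an imprinted fetal growth factor, was 0.232, 0.322 and 0.259 FPKM on PCL, 0.233, 0.251 and 0.216 FPKM on ISB-P and 0.467 FPKM on TCP. The level of Igf1 was between 15.4 and 40.4 times that of Igf2 in the 7 libraries.

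Both receptors were expressed in every library, Igf2r at the higher level. Igf1r was 20.9, 17.1 and 18.1 FPKM on PCL, 21.5, 16.6 and 16.7 FPKM on ISB-P and 15.6 FPKM on TCP. Igf2r was 76.5, 77.5 and 84.6 FPKM on PCL, 71.9, 71.0 and 77.1 FPKM on ISB-P and 92.9 FPKM on TCP. The films overlapped for both genes, whereas the TCP library was under all 6 film libraries for Igf1r and over all 6 for Igf2r. The ratio of Igf2r to Igf1r was 3.67, 4.52 and 4.67 on PCL, 3.35, 4.27 and 4.61 on ISB-P and 5.94 on TCP.

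Among the binding proteins, Igfbp7 (a secreted protein with weak affinity for the ligands) had the highest level. It was 244.8, 185.9 and 183 FPKM on PCL, 208.1, 183.2 and 139.6 FPKM on ISB-P and 275.4 FPKM on TCP. Igfbp6, which prefers IGF2, was 70.9, 58.3 and 57.1 FPKM on PCL, 71.1, 51.3 and 43.8 FPKM on ISB-P and 118.2 FPKM on TCP. Replicate 1 was the highest and replicate 3 the lowest on each film for both genes, and the films overlapped. Igfbp4, a binding protein that restrains IGF action and is cut by the protease Pappa, was 47.6, 41.9 and 42.0 FPKM on PCL, 41.4, 36.5 and 32.9 FPKM on ISB-P and 63.8 FPKM on TCP. It was the member with a level of at least 1 FPKM whose film libraries did not overlap, since the highest ISB-P value lay just under the lowest PCL value.

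The other binding proteins were near or under 2 FPKM. Igfbp3, the main carrier of the ligands in serum, was 1.81, 1.69 and 1.41 FPKM on PCL, 2.34, 2.17 and 1.56 FPKM on ISB-P and 1.72 FPKM on TCP. Igfbp5, which is stored in bone matrix, was 0.704, 0.145 and 0.450 FPKM on PCL, 0.834, 0.973 and 0.938 FPKM on ISB-P and 2.49 FPKM on TCP. Its ISB-P libraries were all above its PCL libraries, at levels under 1 FPKM on both films. Igfbp2, which carries an integrin-binding motif, was between 0.126 and 0.330 FPKM on the films and 0.394 FPKM on TCP.

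**Figure D1:**
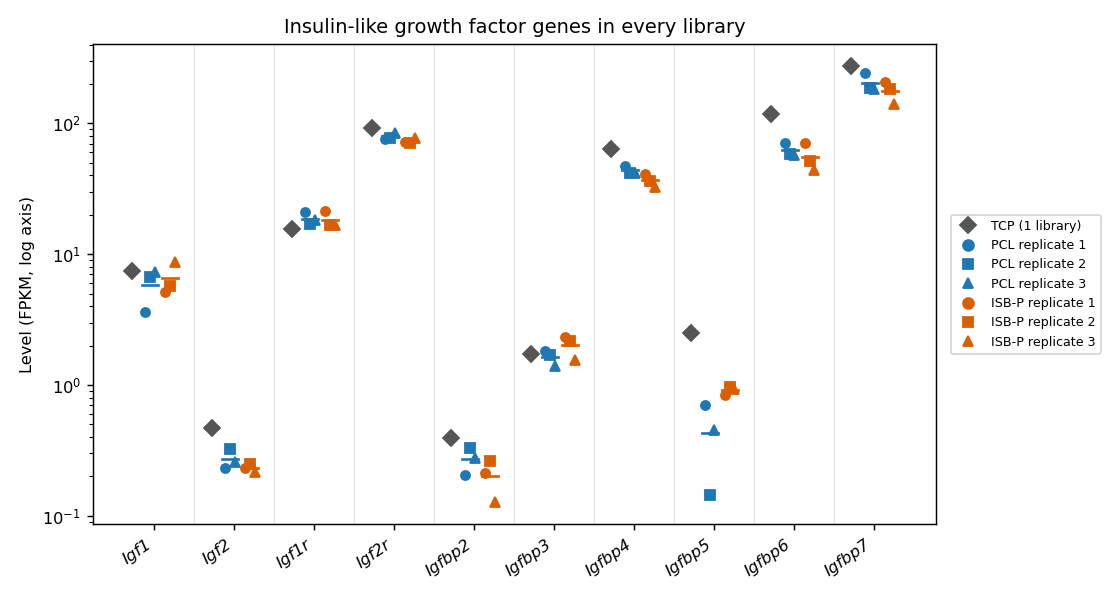
Level of each of the 10 genes in FPKM (log axis) in the TCP library (diamond) and in replicates 1, 2 and 3 of PCL and ISB-P (circle, square and triangle), with a bar at the mean of each film. Igfbp7 was highest on every surface, and the value of the single TCP library lay above all 6 film libraries for 7 genes and below them for Igf1r. Of the 7 tested members, 4 were above, against 25.4% of all tested genes, and 1 was below, against 29.7%.

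The order of the levels was nearly the same on the 3 surfaces. On PCL it was Igfbp7, Igf2r, Igfbp6, Igfbp4, Igf1r, Igf1, Igfbp3, Igfbp5, Igfbp2 and Igf2, and the ranges of neighbours overlapped for Igfbp5 with Igfbp2 and for Igfbp2 with Igf2. On ISB-P the last pair was exchanged, and Igf2r with Igfbp6 and Igf2 with Igfbp2 overlapped. On TCP, Igfbp6 stood above Igf2r and Igfbp5 above Igfbp3. Igfbp7 made up 59.6% of the summed level of the 6 binding proteins on TCP, 64.4% to 66.9% on PCL and 63.8% to 66.7% on ISB-P. Igfbp6 made up 25.6% on TCP, 19.4% to 20.2% on PCL and 18.7% to 21.9% on ISB-P.

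Between ISB-P and PCL, no ligand, receptor or binding protein passed the test without the replicate block. A gene was tested if 3 or more film libraries of the 6 reached 1 FPKM, which 9467 genes did. These include 7 of the 10 members, while Igf2, Igfbp2 and Igfbp5 did not reach 1 FPKM in any film library. The test was limma's on log2(FPKM + 1), a scale on which the change of low genes is understated. An adjusted p under 0.05 was reached by 0 of the 7 as higher and 0 as lower on ISB-P, against 1.10% and 0.623% of all tested genes. At an unadjusted p under 0.05 in limma it was also 0 of 7, against 12.1% of all tested genes. No member passed limits adapted from the study (over 2-fold, unadjusted p under 0.1 and a normalized value of at least 16, taken here as FPKM in the mean of PCL or ISB-P), which 0.687% of the tested genes passed. The median log2 difference of the 7 members, ISB-P minus PCL, was -0.12, with 5 below 0 and 2 above, and that of all tested genes was 0.02.

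On log2(FPKM + 1), Igfbp4 had the largest difference in size among the tested members, with means of 36.9 ± 4.26 and 43.9 ± 3.23 FPKM on ISB-P and PCL (SD, n = 3 each). Its log2 difference was -0.25 (standard error 0.14, 95% interval -0.57 to 0.08, adjusted p = 0.603 in limma). A two-sided exact permutation test of Igfbp4 gave p = 0.1, the smallest that 3 against 3 libraries allow. It was the 1 tested member of 7 with all ISB-P libraries below PCL, which 9.54% of all tested genes showed. None of the 7 had all ISB-P libraries above PCL, which 8.17% showed. Igfbp7 averaged 177 ± 34.7 and 204.6 ± 34.9 FPKM (SD, n = 3 each), and its log2 difference was -0.21 (95% interval -0.68 to 0.25). Igfbp6 averaged 55.4 ± 14.1 and 62.1 ± 7.61 FPKM (SD, n = 3 each), and its log2 difference was -0.18 (95% interval -0.67 to 0.30).

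For the receptors the differences were small. Igf1r averaged 18.3 ± 2.78 on ISB-P against 18.7 ± 1.93 FPKM on PCL (SD, n = 3 each), a log2 difference of -0.04 with a 95% interval of -0.40 to 0.33. Igf2r averaged 73.3 ± 3.32 against 79.6 ± 4.43 FPKM (SD, n = 3 each), a log2 difference of -0.12 with a 95% interval of -0.39 to 0.16. The ligand Igf1 averaged 6.54 ± 1.91 against 5.86 ± 2.00 FPKM (SD, n = 3 each), a log2 difference of 0.15. Its interval was the widest of the 7, from 0.706-fold to 1.75-fold in FPKM + 1. Each of the 7 intervals thus lay within a 2-fold change on that scale, which understates the change of low genes. Igfbp3 averaged 2.02 ± 0.406 and 1.64 ± 0.207 FPKM (SD, n = 3 each), a log2 difference of 0.19 with a 95% interval of -0.13 to 0.51. Being low, Igfbp3 differed more than Igfbp4 by the ratio of means (1.24-fold against 1.19-fold) and with 0.1 FPKM added (log2 difference 0.28 against -0.25).

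**Figure D2:**
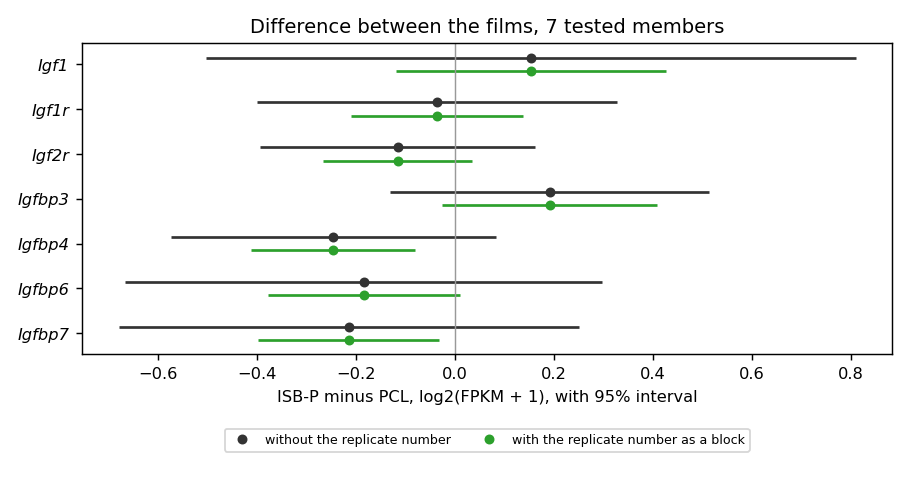
Difference between ISB-P and PCL on log2(FPKM + 1) for the 7 tested genes, with 95% intervals from limma without (black) and with (green) the replicate number as a block. The intervals without the block all include 0, and those of Igfbp4 and Igfbp7 lie below 0 with it. The intervals are not adjusted for the number of genes. With the block, an unadjusted p under 0.05 in limma was reached by 2 of the 7 members and by 3626 of the 9467 tested genes.

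The spread of these genes within a film largely followed the replicate number. For 7 of the 7 tested members the same replicate number gave the highest value on PCL and on ISB-P, which held for 78.1% of all tested genes. The same number gave the lowest value on both films for 5 of the 7, against 75.2% of all tested genes. The highest was replicate 1 for Igf1r, Igfbp3, Igfbp4, Igfbp6 and Igfbp7 and replicate 3 for Igf1 and Igf2r. Within ISB-P the highest value exceeded the lowest 1.62-fold for Igfbp6, 1.49-fold for Igfbp7 and 1.68-fold for Igf1. For all 7 members the range within at least 1 film was wider than the difference between the films, as it was for 87.3% of all tested genes.

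With the replicate number as a block, Igfbp4 was lower on ISB-P (95% interval of the log2 difference -0.41 to -0.08, adjusted p = 0.0399 in limma), the 1 member of 7 called as lower, against 11.4% of all tested genes. No member was called as higher, against 13.0%. The ratio of ISB-P to PCL for Igfbp4 was 0.869, 0.872 and 0.782 within replicates 1, 2 and 3. Igfbp7 had ratios of 0.850, 0.985 and 0.763 and an adjusted p of 0.0860 in limma, and Igfbp6 had ratios of 1.00, 0.881 and 0.767 and an adjusted p of 0.148. Igf2r was also lower on ISB-P within each number, with ratios of 0.940, 0.916 and 0.911 and an adjusted p of 0.233 in limma. With Igfbp4 and Igfbp7 it made 3 of 7 members below PCL in all 3 numbers, against 27.7% of all tested genes. Igfbp3 went the other way, higher on ISB-P within each number. Its ratios were 1.29, 1.28 and 1.11, with an adjusted p of 0.175 in limma.
The number of calls under the block depended on the scaling between libraries. After quantile normalization, 4 of 7 members (Igf2r, Igfbp4, Igfbp6 and Igfbp7) were called as lower on ISB-P, against 12.9% of all tested genes, and the same 4 were called after scaling to a common total, against 22.3%. With upper quartile scaling Igfbp4 alone was called. Leaving out both libraries of replicate 1 or of replicate 2 ended the call of Igfbp4 (adjusted p = 0.163 and 0.111 in limma) at log2 differences of -0.27 in both, in fits with 1 residual degree of freedom per gene. Without replicate 3 Igfbp4 was called (log2 difference -0.20, adjusted p = 0.0122 in limma), and without replicate 2 Igfbp7 was called (log2 difference -0.31, adjusted p = 0.0482 in limma).

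Igfbp5, under the limit for testing, had the largest relative difference of the family, at 0.915 ± 0.0721 against 0.433 ± 0.280 FPKM (SD, n = 3 each). The means differed 2.11-fold, and same-numbered libraries 1.18-fold, 6.72-fold and 2.09-fold, the highest resting on the PCL value of 0.145 FPKM. In a fit without a filter on low values its log2 difference was 0.44 (95% interval 0.10 to 0.78, adjusted p = 0.275 in limma, and 0.0900 with the replicate block). Igf2 and Igfbp2 had log2 differences of -0.04 and -0.08 in the same fit, with adjusted p = 0.801 and 0.710 in limma.

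The single TCP library had higher levels than any film library for 7 of the 10 members, Igf2, Igf2r and all binding proteins but Igfbp3, and a lower level of Igf1r. Differences from TCP have no replicate check and were not tested, and in these bulk samples fewer cells of a type and less RNA per cell cannot be told apart. Of the 7 tested members, 4 (Igf2r, Igfbp4, Igfbp6 and Igfbp7) were above all 6 film libraries on TCP, against 25.4% of all tested genes, and 1 (Igf1r) was below them, against 29.7%. Igf2, Igfbp2 and Igfbp5, at low levels, were also above all film libraries. With 1 FPKM added to each value, TCP was 1.89-fold above the PCL mean and 2.11-fold above the ISB-P mean for Igfbp6. For Igfbp4 it was 1.45-fold and 1.71-fold above them, and for Igfbp7 1.34-fold and 1.55-fold. Igf1r was 0.845 and 0.863 times the film means on this scale.
Over 2-fold differences were few. Of 8 members with at least 1 FPKM on TCP or as the film mean, 1 was over 2-fold lower on PCL than on TCP with 1 FPKM added (Igfbp5, 2.44-fold), against 3.55% of 9730 genes, and 0 were higher, against 5.41%. On ISB-P, 1 of 8 was over 2-fold lower than on TCP (Igfbp6), against 4.73% of 9768 genes, and 0 were higher, against 8.74%. Igfbp6 was within 2-fold of TCP without ISB-P replicate 3 (log2 ratio -0.94). For Igfbp5, at low levels, the size depended on the added value. With 1 FPKM added it was 1.82-fold under TCP on ISB-P, whereas the levels themselves differed 5.75-fold on PCL and 2.72-fold on ISB-P, and with 0.1 FPKM added the log2 ratios to TCP were -2.28 and -1.35.
The summed levels of several marker lists were also higher in the TCP library than in any film library. That of the 6 mesenchymal genes was 12469 FPKM on TCP, 6838 to 7769.6 on PCL and 6462 to 7843 on ISB-P. Most of it came from Col1a1, at 10406 FPKM on TCP. Thy1 and Eng were also above all film libraries on TCP, whereas Nt5e, Cd44 and Itgb1 lay within the film range. The summed level of the 6 blood cell and macrophage genes was 56.5 FPKM on TCP, 22.3 to 25.7 on PCL and 18.5 to 21.1 on ISB-P, and that of the 4 adipocyte genes was 4.83 FPKM on TCP and at most 0.963 on the films. The 4 osteoblast genes summed to 16.6 FPKM on TCP, 6.71 to 9.39 on PCL and 4.61 to 7.93 on ISB-P, most of it from Sp7, while Dmp1 was lower on TCP (0.131 FPKM) than in any film library and Bglap was listed at 0 there. The 2 cartilage genes found summed to 76.7 FPKM on TCP, within the PCL range of 64.7 to 77.7, and to 50.8 to 65.8 on ISB-P. Their part in the differences of the binding proteins was not tested.

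**Figure D3:**
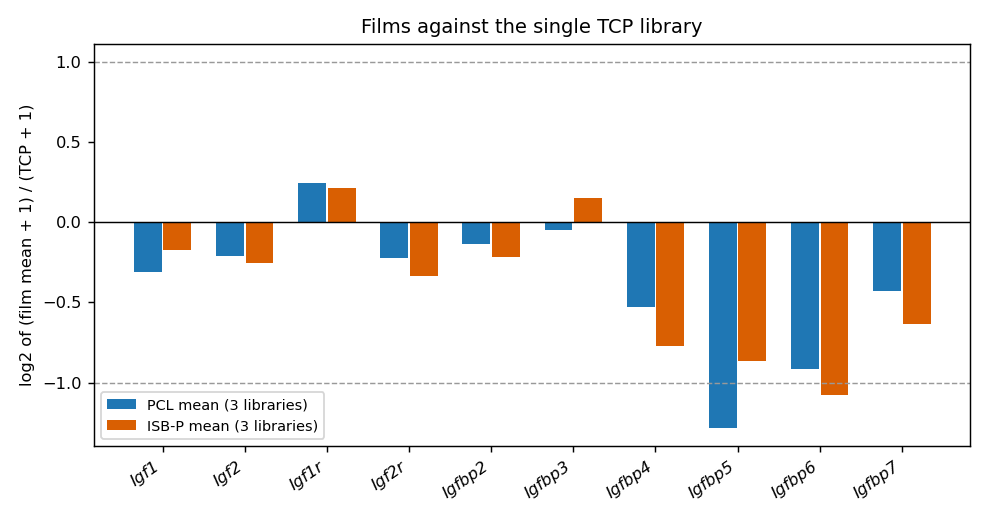
Mean of the 3 PCL libraries and of the 3 ISB-P libraries against the single TCP library for the 10 genes, as log2 of the ratio after adding 1 FPKM to each value. Bars below 0 mean a lower level on the film, dashed lines mark a 2-fold difference, and on this scale only Igfbp5 on PCL and Igfbp6 on ISB-P pass it.

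Other genes that act on the pathway were taken from a list of 21, of which 19 were found and 14 tested. They are the insulin receptors, other binding proteins, proteases that cut binding proteins, the stanniocalcins that inhibit such proteases, adaptors, IGF2 mRNA-binding proteins and the RNA H19. Adamts1, a secreted metalloprotease able to cut binding proteins, was the 1 gene of 14 called as higher on ISB-P, against 1.10% of all tested genes, and 0 were called as lower, against 0.623%. With the replicate block 2 of 14 were higher (Adamts1 and Irs2), against 13.0%, and 2 lower (Irs1 and Stc1), against 11.4%, so these counts were near those of all tested genes. Irs1 entered the 14 only through its PCL libraries. The median log2 difference of the 14 was 0.04.
Adamts1 was 57.0, 56.8 and 62.7 FPKM on PCL, 123.9, 126.5 and 132 FPKM on ISB-P and 23.5 FPKM on TCP. Its log2 difference was 1.10 (standard error 0.12, adjusted p = 0.00831 in limma), and without PCL replicate 1, PCL replicate 2 or ISB-P replicate 2 the adjusted p was 0.0628, 0.0990 and 0.10. All ISB-P libraries were above all PCL libraries, and TCP was below both.
The insulin receptor substrates, adaptors that pass the signal of Igf1r and of the insulin receptor to PI3 kinase, differed in opposite directions. Irs2 was 9.43, 8.54 and 6.77 FPKM on PCL, 16.2, 15.2 and 10.2 FPKM on ISB-P and 8.44 FPKM on TCP (log2 difference 0.67, adjusted p = 0.225 in limma, or 0.00104 with the block). Irs1 was 1.67, 1.44 and 1.44 FPKM on PCL, 0.874, 0.666 and 0.436 FPKM on ISB-P and 1.99 FPKM on TCP (log2 difference -0.61, adjusted p = 0.0776 in limma, or 0.00414 with the block). The films did not overlap for either gene, against 8.17% of all tested genes with all ISB-P libraries above PCL and 9.54% below. Irs1 reached 1 FPKM in 3 film libraries, all of them on PCL. It was thus tested only through the film where it was higher, and its difference carries that selection.
Stc1, an inhibitor of Pappa, was 2.29, 4.02 and 4.34 FPKM on PCL, 1.66, 2.24 and 2.96 FPKM on ISB-P and 0.990 FPKM on TCP (log2 difference -0.46, adjusted p = 0.542 in limma, or 0.0123 with the block). Its films overlapped, although ISB-P was lower within every replicate number. The other 10 tested genes, Pappa and the insulin receptor Insr among them, were not called in either fit, and their log2 differences ranged from -0.17 to 0.24.
H19, the non-coding RNA that neighbours Igf2 and shares its imprinting control, was named after its values were seen. It was 14.95 FPKM on TCP, 3.23, 3.55 and 2.70 FPKM on PCL and 4.20, 3.00 and 3.33 FPKM on ISB-P. With 1 FPKM added, TCP was 3.83-fold above PCL and 3.54-fold above ISB-P.

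**Figure D4:**
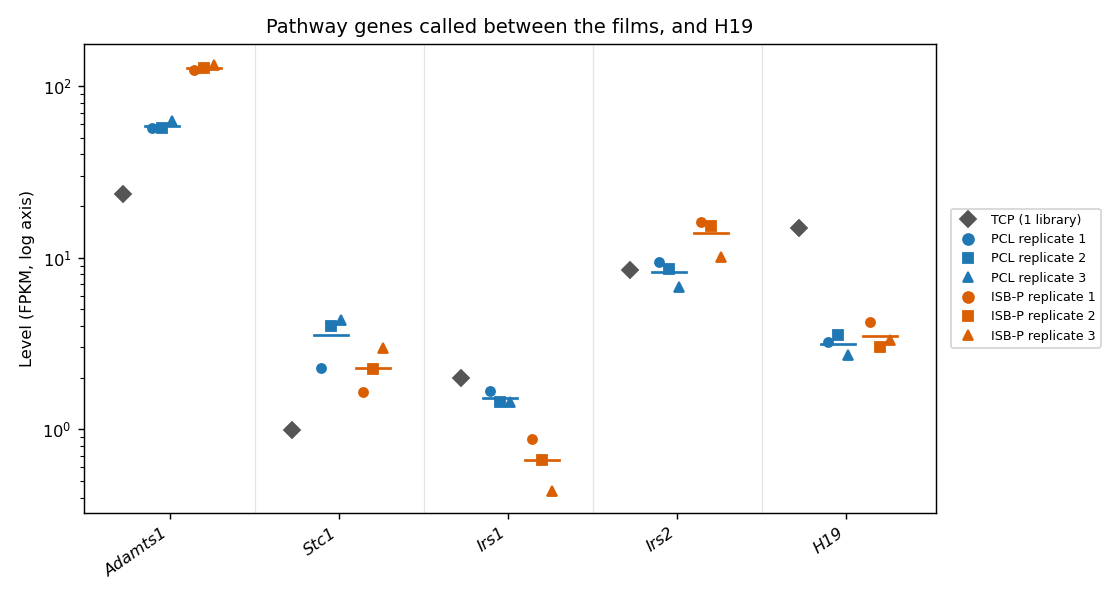
Level in FPKM (log axis) of the 4 pathway genes called between the films with or without the replicate block, and of H19, in the TCP library and in replicates 1, 2 and 3 of PCL and ISB-P, with a bar at each film mean. The films separate for Adamts1, Irs1 and Irs2, and H19 stands higher on TCP, at 14.95 FPKM, than in any film library.

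Genes with profiles most like those of Igfbp4 and Igfbp7, which had the largest negative log2 differences, ISB-P minus PCL, among the tested members, were sought over the 7 libraries, by the root mean square difference of log2(FPKM + 1) values centred on each gene's mean. For Igfbp4 the nearest were Mapkapk3 (0.031 on the log2 scale), Gpr180 (0.048), Jrk (0.050), Gstt1 (0.051) and Arid3a (0.059), where the median tested gene was at 0.37. Mapkapk3, a kinase downstream of p38, was 20.1 FPKM on TCP and 15.3, 13.4 and 13.0 FPKM on PCL, the same shape at a lower level. For Igfbp7 they were Cmip (0.046), Tle2 (0.051), Man2a2 (0.053), Lamb2 (0.054) and Bcat2 (0.055). The same 7 libraries and the shared replicate pattern enter each of these distances, which are given as a description.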

How the data were processed

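RNA from rMSCs on TCP, PCL and ISB-P was sequenced as TruSeq stranded mRNA libraries. The authors deposited 1 table of normalized values per library, read here as FPKM because the values are not whole and their sums differ (539393 to 660124). The submitters' processing notes name bcl2fastq 2.20.0.422, cutadapt 1.18, TopHat2 2.0.13, Cuffdiff 2.2.1 and the build rn5, and the methods name ExDEGA. The annotation is not given in the sources used here, and the read depth of each sample is unknown, so the precision is that of 3 libraries a film.

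Values were used as deposited. The 9467 genes reaching 1 FPKM in 3 or more film libraries were fitted on log2(FPKM + 1) by limma 3.58.1 (R 4.3.3, with its trend option), and two-sided p-values were adjusted by Benjamini-Hochberg over all 9467. The fit was tested on simulated data. The differences built into these data were larger than those of the tested members, so differences of the members' size were not covered. TCP ratios used film means and no test. Single genes were compared by an exact permutation test. The replicate numbers were used to pair the films' libraries, although the methods state no pairing. Deviations from the film means correlated across 9467 genes at r = 0.887, 0.431 and 0.867 for numbers 1, 2 and 3, genes not being independent. For libraries of unlike number r was between -0.836 and 0.177. The deviations within a film cancel out, so these correlations depend on one another. The numbers come from the sample titles. The column headers of the deposited PCL tables number those libraries differently (none, 1 and 2 for replicates 1, 2 and 3), and every value that uses the replicate number rests on the titles.

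The members and lists were chosen with earlier results of these data known. Named genes are all 10 members, pathway genes called in either fit, and for the 3 members with the largest difference the 5 nearest profiles (those of Igfbp3 are not reported here); H19 was added later. Pappa2 and Igf2bp3 of the list were not analysed here. Alternatives were 3 scalings, a pseudocount of 0.1, other filters, the block, TCP in the fit, no trend, limits adapted from the study and each replicate left out; combinations of the block with scaling, filter or a left-out number were chosen after seeing the data. All 10 symbols matched RefSeq's GRCr8 tables, which served only for sequences. Plots used matplotlib 3.10.9 (Python 3.11.15).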

Additional observations from a re-analysis of the deposited data

How the results depend on the processing

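Without the replicate block, 0 members were called as higher or lower under every scaling, pseudocount, filter and left-out library tried. With the replicate number as a block 1 member was lower, also with upper quartile scaling, and 4 with quantile normalization or a common total. The block, by pairing, gave 2 pathway genes higher and 2 lower, also after upper quartile scaling or a common total, and 3 and 2 after quantile normalization. Leaving out both libraries of a replicate number under the block left 0 to 1 members lower, 2 to 4 pathway genes higher and 1 to 2 lower. Leaving out 1 library at a time left 0 to 1 pathway genes higher. Over all tested genes, 104 were higher and 59 lower, 1228 and 1079 with the replicate block, 61 and 24 with at least 5 FPKM in 3 libraries, 58 and 7 by limits adapted from the study, and 14 to 82 and 6 to 31 with 1 library left out. Lower genes were 39 with upper quartile scaling and 38 without the trend. Members over 2-fold from TCP were 1 for PCL (2 with upper quartile scaling or quantile normalization, 1 to 2 with a library left out) and 1 for ISB-P (2 with a pseudocount of 0.1, 0 to 1 with a library left out). The sign of the film difference changed for Igf1 (-0.11 to 0.32 with a library left out) and Igf1r (-0.15 to 0.042, and 0.000513 under the block without replicate 3). The cause was not tested. Scaling to a common total moved the median log2 difference of all genes from 0.02 to -0.09 and that of the members from -0.12 to -0.23. Depth is unknown, so no detection limit can be set for Igf2, Igfbp2 and Igfbp5.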
